A study of Mus musculus with 4 samples.

Results

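Translation initiation factor genes were examined across immune cells of the mouse nasal mucosa. The genes were those whose symbol begins with Eif1 to Eif5, without the eIF2 kinases (Eif2ak) and the eIF2 gamma subunit (Eif2s3). Of 27998 genes listed, 49 symbols matched, and the 46 with at least 50 UMIs (unique molecular identifiers, each counting 1 captured mRNA molecule) over all libraries were kept. The 3 left out were Eif2c5 with 2 UMIs, Eif4e1b with 1 UMI and Eif4ebp3 with 4 UMIs. Single-cell RNA-seq libraries had been made from CD45+ cells of nasal mucosa of C57BL/6 mice aged 8 weeks, with 1 library for each of 4 groups. The Vehicle and Ribavirin groups had received vehicle or the antiviral drug ribavirin, and the Vehicle-OVA and Ribavirin-OVA groups had also received ovalbumin (OVA), the allergen of an allergic rhinitis model. The labels do not give the number of mice per library, and they name magnetic enrichment of CD45+ cells in 1 place and fluorescence sorting in another.

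Initiation factors bring the small ribosomal subunit, the initiator tRNA and the mRNA together. The eIF2 complex, reloaded with GTP by eIF2B, carries the initiator tRNA, eIF3 holds the scaffold on the small subunit, and eIF4F (the cap-binding eIF4E, the scaffold eIF4G and the helicase eIF4A) recruits capped mRNA. The 4E-BP proteins bind eIF4E and keep it from eIF4G, eIF1 and eIF1A act in start codon selection, and eIF5 and eIF5B act when the start codon is found and the large subunit joins.

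Where 4 values follow each other below, they belong to Vehicle, then Vehicle-OVA, then Ribavirin, then Ribavirin-OVA. Filtering left 25727, 17498, 20278 and 8817 cells, with a median of 3432.5 to 5131.5 UMIs. A cell was given a class when it held at least 3 UMIs over at least 2 markers of that class and of no other, which 63.4% to 73.8% of cells of a library did. Such a class is a range of marker counts and not a cell type, and 4.48% to 19.3% of neutrophil-, macrophage- and T cell-like cells lay at that limit, with exactly 3 UMIs or exactly 2 markers. In these 3 classes the median count of every other class's markers was 0 or 1 UMI per cell. More cells lay at the limit in some other classes, at 51.1% to 53.3% of monocyte-like and 42.6% to 51.2% of conventional dendritic (cDC)-like cells. For plasma cell-like cells the share was 9.38%, 52.4%, 10.8% and 27.8%. Macrophage-like cells were deeper without OVA, with a median of 9297, 5654, 9485.5 and 5525 UMIs, of which 117, 28, 104 and 33 came from macrophage markers. Between 57 and 174 barcodes were shared by any pair of libraries. With 1 library per group there was no replicate of any group, and no test between groups was run. Intervals are 95% intervals that cover counting error only, and a gene was called past 1.5-fold as a rule of size.

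The starts of 37 of the 46 genes were found among RefSeq promoters of build GRCm38.p6 (250 bases before to 50 after the start). The motif CACGTG reads the same on both strands and is the core of the E-box bound by Myc and related factors. It was present in 10 of these genes (27.0%) and in 8.09% of all 27025 genes with such a promoter. Of 79 ribosomal protein gene symbols 7.59% held it. The cAMP response element TGACGTCA was in 0 of the 37 and in 2.03% of all genes. A start at C followed by a run of C and T, at least 6 bases in all, is the feature of terminal oligopyrimidine mRNAs, whose translation follows mTORC1. It was found in 1 member, Eif3f (2.70%), in 2.05% of all genes and in 16.5% of 79 ribosomal protein gene symbols. The start of Eif3f is shown, and 1 window with CACGTG for each of Eif3a (the eIF3 scaffold) and the 3 parts of eIF4F, each of 30 bases with the run or motif in capitals. A match is a description of letters and not a site.
Eif3f, chr7:108934400-108934429, plus strand, start at the first capital: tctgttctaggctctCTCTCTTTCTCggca
Eif4g1, chr16:20672661-20672690, plus strand: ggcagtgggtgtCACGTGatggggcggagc
Eif3a, chr19:60790654-60790683, minus strand: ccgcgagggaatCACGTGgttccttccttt
Eif4a1, chr11:69672595-69672624, minus strand: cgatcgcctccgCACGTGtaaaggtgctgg
Eif4e, chr3:138527192-138527221, plus strand: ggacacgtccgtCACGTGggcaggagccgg

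First, levels were compared between cell classes, as CPM (the UMIs of a gene, summed per class and library and scaled to the same total in each). Because UMIs are counted at the 3′ end, CPM was not divided by transcript length and levels were not compared between genes. The 46 genes together made up 0.545% to 0.652% of the UMIs of neutrophil-like cells. The range was 0.634% to 0.660% for macrophage-like, 0.764% to 0.811% for T cell-like and 0.857% to 0.904% for plasma cell-like cells. Eif1 alone held 31.6% to 49.0% of these UMIs in the neutrophil-like class, against 14.8% to 19.2% in the macrophage-like class. The cDC-, pDC-, NK- and plasma cell-like classes held 73, 58, 68 and 84 cells in Vehicle-OVA, so that their values there rest on few cells. Without Eif1, the neutrophil-like share was 0.296% to 0.406%. Of the 46 genes, 32 had their lowest mean level over the 4 libraries in neutrophil-like cells, and 16 had their highest in plasma cell-like cells. These counts were not made over all genes, so they are not a result about this set. Against macrophage-like cells, 33.4% to 62.0% of all genes in a library were at least 1.5-fold lower in neutrophil-like cells.

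**Figure D1:**
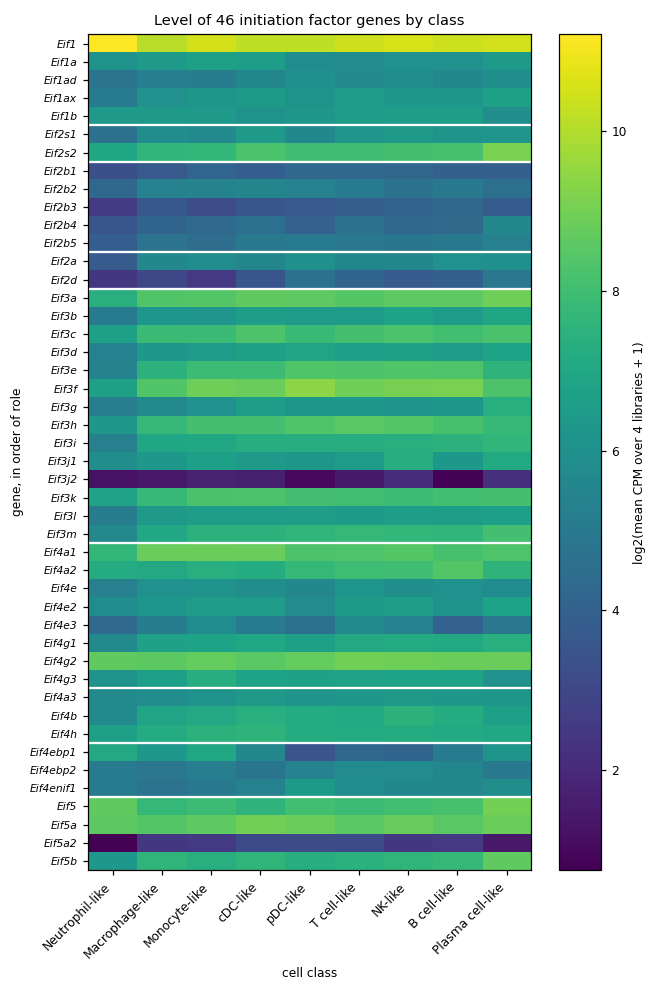
Mean level of each of the 46 genes (rows, in order of role, white lines between roles) in 9 cell classes (columns), as log2 of mean CPM over 4 libraries plus 1. The neutrophil-like column is the darkest for 32 genes, while Eif1, at 2375 CPM, is brightest there.

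Eif1 (chromosome 11, 100319885 to 100322096, plus strand, GRCm38), the factor that guards start codon choice, was at 2461, 2849, 2468 and 1724 CPM in the neutrophil-like class. Macrophage-like values were 1159, 979, 1222 and 962 CPM, below every neutrophil-like value. Of 9 classes, the neutrophil-like was highest for Eif1 in all 4 libraries. Eif1b, its paralogue, ranged from a mean of 59.1 CPM in plasma cell-like to 97.3 CPM in NK-like cells. Of the pair that encodes eIF1A, Eif1a was highest in monocyte-like cells at 103 CPM and Eif1ax in plasma cell-like cells at 107 CPM, and Eif1a gave 66.2% to 73.5% of the pair's UMIs in the neutrophil-like class but 34.5% to 44.2% in the T cell-like class.

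Of eIF2, Eif2s2, the beta subunit, was highest in plasma cell-like cells in all 4 libraries, at 565, 460, 595 and 597 CPM, against a mean of 119 CPM in neutrophil-like cells. Eif2s1, the alpha subunit whose phosphorylation is the switch of the integrated stress response, ranged from 24.6 CPM in neutrophil-like to 84.9 CPM in conventional dendritic (cDC)-like cells. Eif2d and Eif2a, which can bring tRNA to the ribosome outside eIF2, both had their lowest mean in neutrophil-like cells, at 4.41 and 12.3 CPM. The highest mean was 29.2 CPM for Eif2d, in plasma cell-like cells, and 64.6 CPM for Eif2a, in B cell-like cells. The B cell-like class was highest for Eif2a in 1 of 4 libraries. Eif2d rested on 50 to 100 neutrophil-like UMIs per library and was lowest there in 2 of 4 libraries. Of the 5 subunits of eIF2B, Eif2b4 and Eif2b5 were highest in plasma cell-like cells in all 4 libraries, at means of 47.9 and 38.3 CPM. All 5 had their lowest mean in neutrophil-like cells, at 4.92 to 18.5 CPM. By library, Eif2b1 and Eif2b4 were lowest there in 2 of 4 and Eif2b2 in 3 of 4.

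Among the eIF3 subunits, Eif3e was at 62.3, 18.1, 48.1 and 39.0 CPM in the neutrophil-like class and at 321, 311, 303 and 311 CPM in the T cell-like class. Eif3f was at 125, 69.9, 110 and 111 CPM in the neutrophil-like class. Plasmacytoid dendritic (pDC)-like cells, its highest class in all 4 libraries, were at 674, 601, 697 and 689 CPM. Both genes were named for their wide range over classes, so the lack of overlap here follows from that choice. Eif3m ranged from 50.3 CPM in neutrophil-like to 273 CPM in plasma cell-like cells, and Eif3i from 38.0 to 197 CPM in the same classes. Eif3a, the scaffold of the complex, was highest in plasma cell-like cells at 482 CPM and lowest in neutrophil-like cells at 162 CPM. Eif3b, whose protein the study stained in macrophages, ranged from 32.3 to 118 CPM in the same classes. Eif3j2 had a mean of at most 3.43 CPM in any class, and the last 500 bases of its transcript match Eif3j1 at 99.8%, so that its level and that of Eif3j1 are uncertain. Eif4a3 has near-identical copies in the count table as well.

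Of the factors that act late, Eif5, which triggers GTP hydrolysis by eIF2, was at 362, 494, 353 and 420 CPM in the neutrophil-like class, above the macrophage-like 173, 233, 221 and 215 CPM. Plasma cell-like cells held still more in 3 of 4 libraries, with a mean of 517 CPM, and Vehicle-OVA neutrophil-like and plasma cell-like cells, at 494 and 492 CPM, did not differ beyond their intervals. Eif5b, which joins the subunits, was highest in plasma cell-like cells in all 4 libraries at 370 to 444 CPM. Eif5a, a factor of elongation despite its name, ranged from 340 CPM in macrophage-like to 510 CPM in cDC-like cells, and Eif5a2 had a mean of at most 8.08 CPM in any class.

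Eif4ebp1, which encodes the best known repressor of eIF4E, had the widest range of all, from 10.4 CPM in pDC-like to 131 CPM in neutrophil-like cells. Neutrophil-like values were 204, 74.7, 156 and 89.1 CPM. Monocyte-like values were 146, 111, 172 and 92.1 CPM, and T cell-like values 19.9, 15.2, 24.4 and 15.3 CPM. The neutrophil- and monocyte-like means, 131 and 130 CPM, had no fixed order, since the neutrophil-like class was higher in Vehicle and the monocyte-like class in the other 3 libraries, in Ribavirin and Ribavirin-OVA within overlapping intervals. Of the UMIs of Eif4ebp1 and Eif4ebp2 together, Eif4ebp1 gave 68.5% to 84.96% in the neutrophil-like class and 19.0% to 35.0% in the T cell-like class. Eif4ebp2 lay between 26.9 CPM in cDC-like and 55.2 CPM in NK-like cells. The target of both, Eif4e, ranged from 38.8 CPM in neutrophil-like to 74.1 CPM in T cell-like cells. Eif4e2 had its lowest mean in pDC-like cells at 54.3 CPM, close to 55.7 CPM in neutrophil-like cells. The pDC-like class was lowest for Eif4e2 in 2 of 4 libraries. Eif4e3 had its lowest mean in B cell-like cells at 15.6 CPM, on 6 to 21 UMIs per library. It was lowest there in 1 of 4 libraries and highest in monocyte-like cells at 56.8 CPM. The scaffolds Eif4g1 and Eif4g3 went to different classes. Eif4g1 was highest in plasma cell-like cells, at 127, 189, 129 and 229 CPM, and Eif4g3 in monocyte-like cells, at 139, 174, 141 and 161 CPM. Eif4g1 gave 68.6% to 75.6% of their UMIs in the plasma cell-like class and 39.9% to 46.1% in the neutrophil-like class. Eif4g2 had the narrowest range of all members, from 370 CPM in cDC-like to 501 CPM in T cell-like cells. Eif4enif1, which carries eIF4E into the nucleus, was highest in pDC-like cells in all 4 libraries at a mean of 86.9 CPM, and Eif4b, which assists eIF4A, in NK-like cells at 184 CPM.

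**Figure D2:**
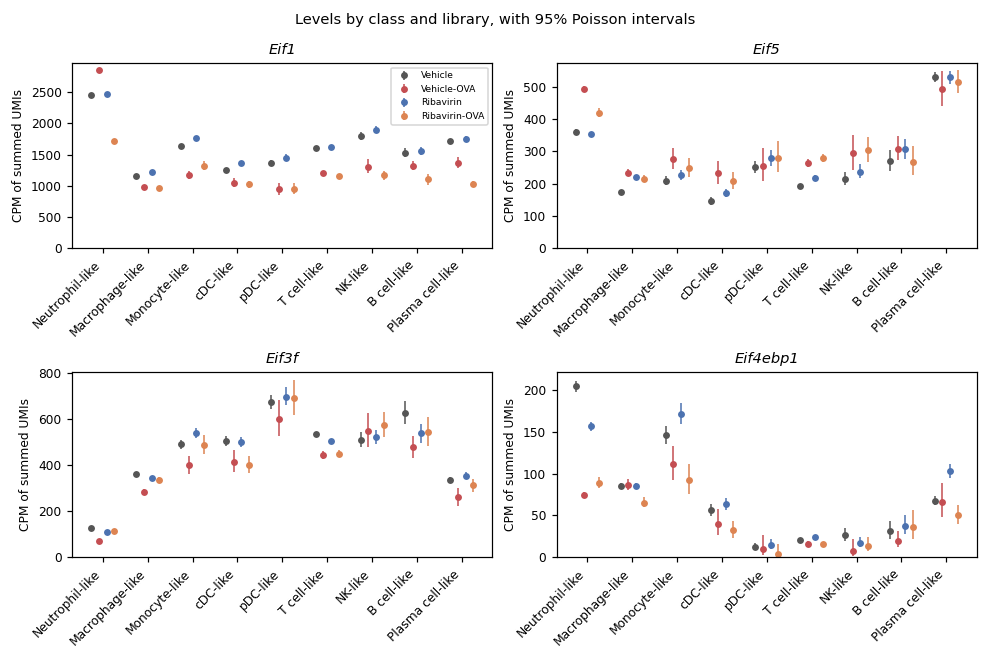
Level of Eif1, Eif5, Eif3f and Eif4ebp1 (y axis, CPM of summed UMIs, from 0) by cell class (x axis), with a point for each library and bars for 95% Poisson intervals of counting error. Eif1 is highest in neutrophil-like cells in all 4 libraries, Eif3f is lowest there, and Eif4ebp1 is below 40 CPM in pDC-, T cell-, NK- and B cell-like cells.

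Next, neutrophil-like cells were set against macrophage-like cells of the same library, on the scale log2(CPM + 1). The members' median was -0.42 in Vehicle, -1.67 in Vehicle-OVA, -0.66 in Ribavirin and -0.53 in Ribavirin-OVA, beside -0.17, -1.04, -0.36 and -0.35 for all genes tested. In Vehicle 19 of 46 members were at least 1.5-fold lower, while 33.4% of all genes were. In Vehicle-OVA 37 of 45 members were, beside 62.0% of all genes, in Ribavirin 25 of 46 beside 40.5%, and in Ribavirin-OVA 21 of 44 beside 41.8%. The share of members was thus above the background in each library. Of the 44 members tested in all libraries, 16 were lower in all 4, while 27.8% of all genes were. These 16 held 10 eIF3 subunits of the 13 tested, together with Eif2a, Eif2s1, Eif4a1, Eif4b, Eif4g1 and Eif5b. Eif1 and Eif5 were the 2 members at least 1.5-fold higher in all 4 libraries. Of all genes tested in the 4 libraries, 11.8% were. Eif1 had a difference of 1.09, 1.54, 1.01 and 0.84 on the log2 scale, and Eif5 of 1.06, 1.08, 0.68 and 0.96. Cytosolic ribosomal protein genes had a median of -1.24 to -2.10, further down than the initiation factors.

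Eif4a1 and Eif4a2 encode near-equivalent forms of the eIF4A helicase, and the share of Eif4a1 among the UMIs of both differed between classes. It was 78.7%, 79.3%, 76.4% and 75.4% for macrophage-like, 61.7%, 58.4%, 63.7% and 53.3% for neutrophil-like and 53.8%, 37.2%, 51.5% and 46.2% for B cell-like cells. The macrophage-like share was above the neutrophil- and B cell-like ones in each library. Monocyte- and cDC-like shares were as high or higher in Vehicle, at 81.8% and 78.7%, and in Ribavirin, at 79.8% and 78.2%. In both OVA libraries they were below the macrophage-like share. For T cell-like cells the Eif4a1 share was 65.1% (64.3 to 65.9) under vehicle alone against 49.6% (48.0 to 51.1) when OVA was added. Under ribavirin these shares were 65.3% (64.3 to 66.2) and 49.6% (48.3 to 51.0). The 2 OVA libraries were thus lower than both others in this class, with intervals that did not overlap. The same held for the neutrophil- and monocyte-like classes, the latter at 81.8%, 73.6%, 79.8% and 64.1%. The T cell-like levels behind this were, for Eif4a2, 169 and 338 CPM in Vehicle and Vehicle-OVA and 175 and 326 CPM in Ribavirin and Ribavirin-OVA, whereas those of Eif4a1 were between 315 and 332 CPM in all 4 libraries. In macrophage-like cells the shares of Vehicle and Vehicle-OVA overlapped.

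**Figure D3:**
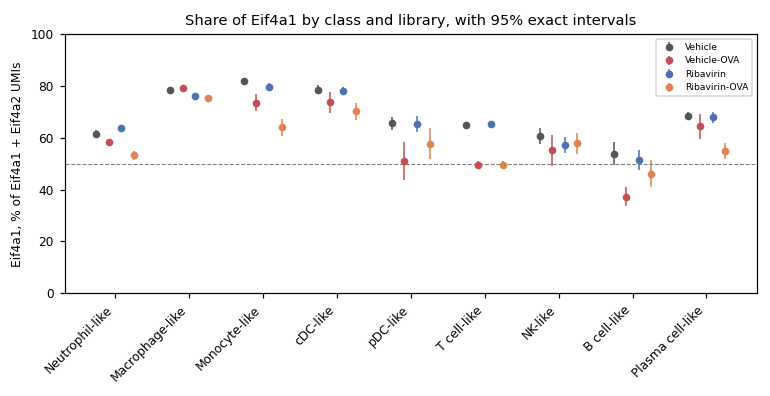
Eif4a1 as a percentage of Eif4a1 plus Eif4a2 UMIs (y axis) by cell class (x axis) and library, with exact 95% intervals of counting error and a dashed line at 50. T cell-like cells of both OVA libraries sit at 49.6%, and those of the other libraries at 65.1% and 65.3%.

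Then, libraries with OVA were compared with those without, in the neutrophil-, macrophage- and T cell-like classes, within vehicle and within ribavirin. These 2 pairs share no library. Ratios were centred on the median of all genes tested in the class, since that median itself lay at -0.52 and 0.25 (neutrophil-like, vehicle first), 0.22 and 0.26 (macrophage-like) and 0.37 and 0.36 (T cell-like). The centred medians of the members were -0.44 and -0.23, -0.08 and -0.18, and -0.35 and -0.36 for these classes in turn. Before centring the members' medians were -0.96 and 0.01, 0.14 and 0.08, and 0.02 and 0.00, so that all but the neutrophil-like value under vehicle were lower only relative to the median gene. Ribosomal protein genes had centred medians of -1.04 to -1.29 in these classes, and the share of UMIs from Gm42418, which overlaps ribosomal RNA genes, was 1.06% and 6.24%, and 1.73% and 6.90%, in macrophage-like cells without and with OVA. Whether either had a part in the members' values was not tested.

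In neutrophil-like cells, 19 of 46 members were at least 1.5-fold lower under vehicle, beside 22.6% of all genes, and 5 were higher, beside 24.5%. Under ribavirin 7 were lower, beside 17.1%, and 0 were higher, beside 12.3%. In macrophage-like cells 5 members were lower under vehicle (19.0% of all genes) and 2 higher (16.8%), and 10 were lower under ribavirin (17.2%) and 1 higher (14.5%). In T cell-like cells 17 were lower under vehicle (22.0%) and 1 higher (15.2%), and 14 were lower under ribavirin (20.3%) and 0 higher (12.2%). As shares, the lower members were 37.0% and 30.4% for T cell-like cells, and 41.3% for neutrophil-like cells under vehicle and 21.7% for macrophage-like cells under ribavirin, each above the background. The other shares were below it, at 15.2% for neutrophil-like cells under ribavirin and 10.9% for macrophage-like cells under vehicle. By role, 8 and 5 of 14 eIF3 genes were lower in T cell-like cells, with a median of -0.63 and -0.47. Of 8 eIF4F genes 1 and 1 were, with a median of -0.13 and -0.01. Transcripts have 909 to 5413 bases in eIF3 and 1774 to 8134 in eIF4F. The part of length in this contrast was not tested.

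**Figure D4:**
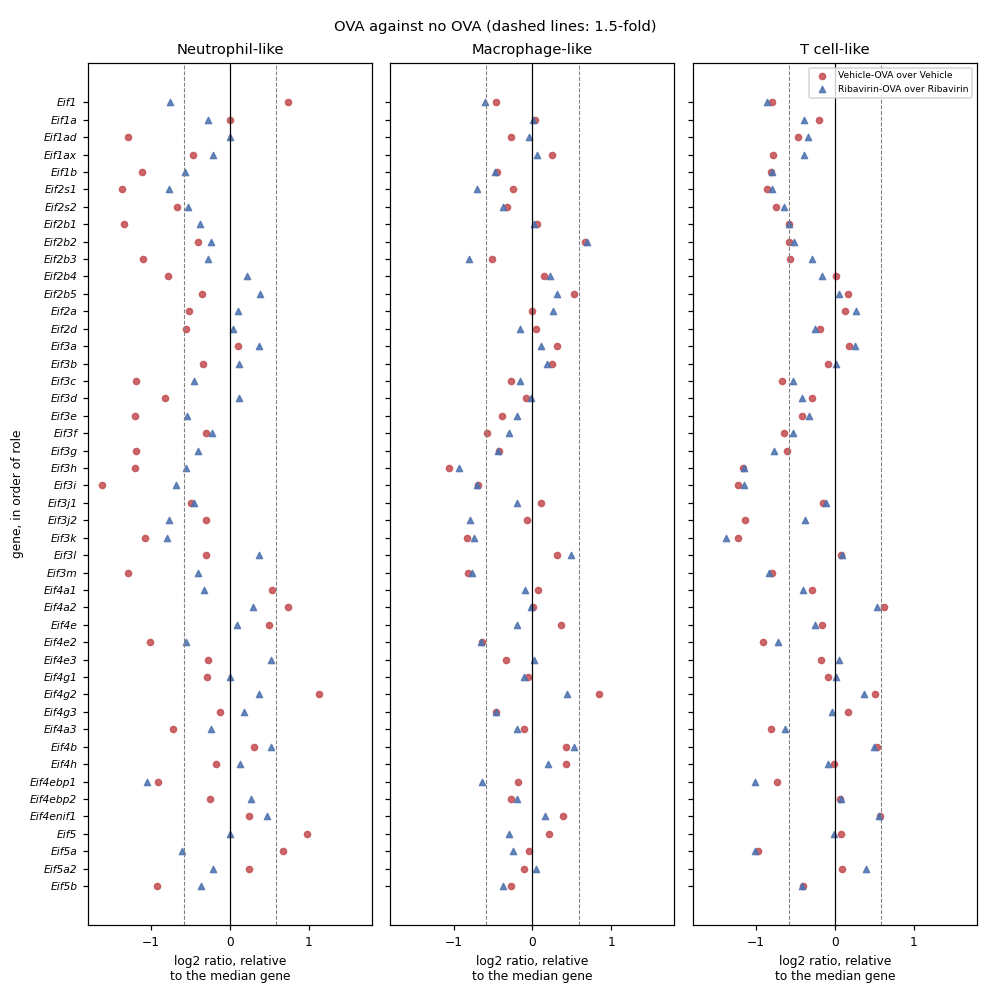
Log2 ratio of OVA over no OVA relative to the median gene (x axis) for each of the 46 genes (y axis, in order of role) in 3 cell classes, with circles for vehicle and triangles for ribavirin and dashed lines at 1.5-fold. Both marks of Eif3h, Eif3i and Eif3k lie left of 0 in all 3 classes, and the marks of Eif1 and Eif5a lie on opposite sides of 0 in neutrophil-like cells.

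Among the lower members were the eIF3 subunits Eif3h and Eif3k. In T cell-like cells Eif3h (chromosome 15, 51786558 to 51865523, minus strand, GRCm38) was at 473, 274, 476 and 274 CPM, which is 0.578-fold (0.549 to 0.609) and 0.576-fold (0.550 to 0.603). Eif3k was at 352 and 194 CPM and at 335 and 165 CPM in the same order, 0.550-fold (0.517 to 0.584) and 0.492-fold (0.464 to 0.522). Both OVA libraries were below both others for each gene, which largely restates the rule that named them, past 1.5-fold in both pairs. In macrophage-like cells Eif3h was at 267 and 148 CPM and at 260 and 162 CPM, 0.555-fold (0.521 to 0.592) and 0.624-fold (0.586 to 0.664). Of the members past 1.5-fold in both pairs in 1 direction, 13 were lower for the T cell-like class, 5 for the macrophage-like and 4 for the neutrophil-like. The 13 were Eif3h, Eif3i, Eif3k, Eif3m, Eif3g, Eif2s1, Eif2s2, Eif4a3, Eif4e2, Eif4ebp1, Eif1, Eif1b and Eif5a. Of all genes 16.2%, 12.5% and 9.14% were lower in both pairs in these classes in turn.

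Not all members moved this way. Higher in both pairs was 1 of 46 members in macrophage-like cells, beside 9.8% of all genes. In neutrophil- and T cell-like cells 0 members were, beside 6.54% and 8.43% of all genes. Eif2b2, a subunit of eIF2B, was the member higher in both pairs in macrophage-like cells, at 29.0 and 54.2 CPM under vehicle and 27.6 and 54.5 CPM under ribavirin. These are 1.87-fold (1.65 to 2.11) and 1.97-fold (1.74 to 2.25). Eif4g2, which encodes a scaffold that works without eIF4E, was at 250 and 524 CPM and at 278 and 453 CPM in these cells, 0.85 and 0.44 above the median gene on the log2 scale. The first passed the size rule and the second did not. Eif4a2 was the member higher in T cell-like cells under vehicle, at 0.63. Eif4g1, the study's other stained protein, had 101 and 114 CPM and 98.0 and 109 CPM in macrophage-like cells, which is under 1.5-fold in both pairs, as was Eif3b with 63.4 and 87.8 CPM and 61.2 and 83.8 CPM.

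Among the neutrophil-like values, Eif4ebp1, Eif3k, Eif3i and Eif2s1 were lower in both pairs. Eif4ebp1 was 0.365-fold (0.347 to 0.384) the level without OVA for vehicle and 0.570-fold (0.526 to 0.617) for ribavirin. Past 1.5-fold in opposite directions were 2 members, beside 2.42% of all genes. Relative to the median gene Eif1 was 0.74 higher under vehicle and 0.76 lower under ribavirin, and Eif5a 0.68 higher and 0.60 lower. Uncentred, their folds were also on opposite sides, at 1.16 and 0.698 for Eif1 and 1.11 and 0.779 for Eif5a. The median of all genes, on which the first values are centred, was itself on opposite sides in these pairs.

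The ratios moved with transcript length. Over the 46 members, Spearman's correlation of the centred ratio with transcript length (GENCODE M21) was 0.58 and 0.63 (T cell-like), 0.37 and 0.26 (macrophage-like) and 0.41 and 0.48 (neutrophil-like), and it was 0.30 to 0.52 over all genes of a class. Points share libraries and genes are not replicates, so this is a description. Eif3k has the shortest transcript, 909 bases, Eif3i has 1123 and Eif3h 1295. Relative to genes of like length, the T cell-like values of Eif3h (-0.62 and -0.64) and of Eif2s1 were still past 1.5-fold, whereas Eif3k, Eif3i, Eif3m, Eif5a and Eif1 were under that size and Eif1b changed side, to 0.15 and 0.13.

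**Figure D5:**
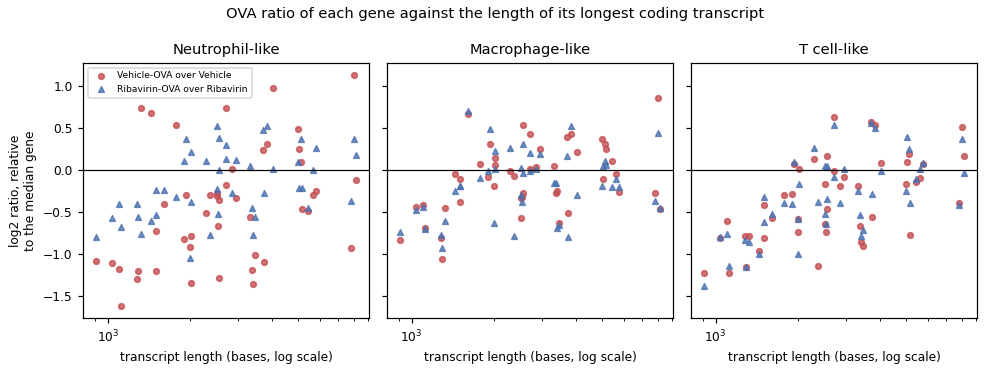
Log2 ratio of OVA over no OVA relative to the median gene (y axis) against transcript length in bases (x axis, log scale) for the 46 genes in 3 cell classes, with circles for vehicle and triangles for ribavirin. The shortest transcripts, such as Eif3k with 909 bases, lie low in all 3 classes.

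Other genes of the pathway were read from a list of 47. With the shares over all genes given above as background, 12 of 47 were higher and 8 lower in neutrophil-like cells under vehicle, and 6 higher and 3 lower under ribavirin. Of 45 tested in macrophage-like cells, 6 were higher and 4 lower, and 6 higher and 3 lower. Of 46 tested in T cell-like cells, 7 were higher and 6 lower, and 6 higher and 7 lower. Eef1b2 and Eef1d, which reload the elongation factor eEF1A, and Eif6, which keeps ribosomal subunits apart, were lower in both pairs in all 3 classes. The T cell-like values of Eef1b2 were 1216, 621, 1158 and 564 CPM. Ppp1r15b, a phosphatase subunit that reverses eIF2 alpha phosphorylation, was higher in both pairs in all 3 classes, at 43.2 and 117 CPM and at 49.0 and 110 CPM in macrophage-like cells. Atf4, the transcription factor of the integrated stress response, was higher in both pairs in neutrophil- and T cell-like cells. So was Eif2s3x, the eIF2 gamma subunit left out by the rule, in macrophage- and T cell-like cells. The shares of all genes past 1.5-fold in both pairs, given above, are the background. Of 6 integrated stress response genes tested in the T cell-like class, 2 were higher and 0 lower under vehicle, with a median of 0.30. Under ribavirin 2 were higher and 2 lower, with a median of -0.13. The neutrophil-like class had 5 of 7 higher under vehicle and 3 under ribavirin, and the macrophage-like class 2 and 1 of 5. Neither class had any lower. In T cell-like cells 4 further genes were past the size rule in both pairs. Ddx3x, an RNA helicase, was at 224, 597, 241 and 630 CPM and Pabpc4, a poly(A)-binding protein gene, at 21.1, 44.1, 21.4 and 47.9 CPM. These genes were higher with OVA. Lower were Denr, which acts in reinitiation, at 149, 108, 149 and 108 CPM, and Mtor, the kinase of mTORC1, at 20.5, 13.2, 18.8 and 14.9 CPM. Before centring on the median gene, Denr in both pairs and Mtor under ribavirin were under 1.5-fold.

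Ribavirin was then compared with vehicle, in pairs that share libraries with the OVA pairs. Without OVA 0 of 46 members were past 1.5-fold in neutrophil-, macrophage- or T cell-like cells, beside 9.87%, 3.16% and 2.37% of all genes. With OVA 1 was in macrophage-like cells (11.7% of all genes), namely Eif3j2 on 7 and 17 UMIs, and 0 in T cell-like cells (7.85%). In neutrophil-like cells with OVA 15 of 46 were past 1.5-fold, beside 30.0% of all genes, 8 higher and 7 lower. Eif1, at 1724 CPM in Ribavirin-OVA and 2849 in Vehicle-OVA, was furthest down at -1.39 and Eif4e3, at 31.4 and 9.79 CPM, furthest up at 0.92. Of the 7 lower, Eif5a2 and Eif3j2 rested on 5 to 28 UMIs, and Eif5a, Eif5, Eif4a1 and Eif4g2 had uncentred folds of 0.776, 0.851, 0.934 and 0.967. Eif1, at 0.605-fold (0.594 to 0.616), was past 1.5-fold without centring too. The median of all genes lay at 0.67 in this pair.

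Finally, cycling T cell-like cells (at least 3 UMIs over at least 2 of Mki67, Top2a, Birc5, Cdk1 and Stmn1) were set against the other T cell-like cells of their library. Cycling cells numbered 481, 64, 303 and 83, with a median of 9243.5 to 11092 UMIs against 3942 to 5128 in the others. At least 1.5-fold higher were 8 of 46 members in Vehicle (10.6% of all genes), 9 of 45 in Vehicle-OVA (12.5%), 9 of 45 in Ribavirin (11.3%) and 3 of 45 in Ribavirin-OVA (9.87%). Members' medians were 0.17 to 0.27, beside -0.07 to -0.20 for all genes. Eif1ax was higher in all 4 libraries, by 0.81, 0.82, 0.98 and 0.59 on the log2 scale. Eif4a2 was lower in all 4, at -0.73, -0.62, -0.68 and -0.42, the last under 1.5-fold. Eif5a, at 700 and 380 CPM in Vehicle, was 1.84-fold higher there (1.77 to 1.91) and 1.21-fold (1.08 to 1.36) in Ribavirin-OVA.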

How the data were processed

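For each of the 4 libraries the authors deposited integer UMI counts per gene and cell, made with Cell Ranger 5.0.0 per the file headers, with the build mm10 in the submitters' processing notes. Deposited totals were 91742940 to 171873110 UMIs. From these counts, cells with at least 500 UMIs, at least 200 genes and under 10% mitochondrial UMIs were kept, classed by marker gates and summed per class and library (Python 3.11.15, numpy 2.4.6, scipy 1.17.1), then scaled to CPM. Levels have exact Poisson, ratios conditional binomial and shares Clopper-Pearson 95% intervals. Ratios between libraries used log2(CPM + 1) over genes with at least 50 UMIs in the class over the 4 libraries, and classes with at least 100 cells in each library. For neutrophil- over macrophage-like ratios, genes needed at least 50 UMIs in both classes together in that library. Transcript lengths came from GENCODE M21. Calls were checked on simulated counts. Genes named were the 8 with most UMIs, the 8 with the widest range over classes (at least 50 UMIs in the highest class, which left out Eif5a2 with 41), up to 8 per class past 1.5-fold in both OVA pairs, paralogue sets, Eif3b and Eif4g1, and pathway genes past 1.5-fold in both pairs. Genes named beside these were chosen after their values were seen. Members and lists were chosen with earlier results of these data known.

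Doublets stayed in the main values, other than cells passing several gates. As an alternative, Scrublet's procedure, rewritten in Python, was run with its threshold at the minimum between modes. It marked 5.95% of Vehicle, 3.60% of Ribavirin and 0.76% of Ribavirin-OVA cells but 0 cells of Vehicle-OVA, so it had not worked there. After that outcome a second version was added, which left out the top-scoring cells up to the expected share (3.61% to 11.2% of cells). It marks cells by construction and does not show that they are doublets. Near-identical copies were sought with blastn 2.17.0+ in the last 500 bases of each transcript.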

Additional observations from a re-analysis of the deposited data

Results flagged for a closer look

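In neutrophil-like cells, Eif1 and Eif5a moved in opposite directions with OVA under vehicle and under ribavirin. Relative to the median gene, Eif1 was at 0.736 in Vehicle-OVA over Vehicle and -0.763 in Ribavirin-OVA over Ribavirin, and Eif5a at 0.675 and -0.604. Each group was 1 library, so the difference was not tested.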

How the results depend on the processing

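No paired analysis was possible because each group was 1 library with no replicate number to pair, and leaving out a library would leave its group empty. An additive model of OVA and ribavirin over the 4 libraries was not run. Of 388 recomputed summary values 356 stayed within the limits set for them, among them every value under both doublet settings, all mitochondrial limits and the minimum of 1000 UMIs. That minimum removed no neutrophil-, macrophage- or T cell-like cell of Ribavirin (6247, 2212 and 3418 cells), and the first doublet setting none of Vehicle-OVA. There these settings could change nothing. A further 36 values were not counted among the 388. Of these, 17 moved without centring, and 18 moved and 3 reversed relative to genes of like length. Without centring, the OVA medians of T cell-like cells changed sign, to 0.0246 under vehicle and 0.00176 under ribavirin, with 9 members past 1.5-fold under vehicle. Macrophage-like medians became 0.138 and 0.0834, with 5 members past 1.5-fold under ribavirin, and the neutrophil-like medians became -0.963 under vehicle and 0.0133 under ribavirin, so that the sign also differed in these classes except for neutrophil-like cells under vehicle. For ribavirin, uncentred neutrophil-like medians were -0.295 without OVA (1 member) and 0.826 with OVA (34 members), and the T cell-like median without OVA was 0.016. Relative to genes of like length, 7 macrophage-like members (ribavirin pair) and 10 and 8 T cell-like members were past 1.5-fold with OVA, Eif1b in T cell-like cells was at 0.147 and 0.133, and Eif3i in neutrophil-like cells under ribavirin at 0.00766. Neutrophil- over macrophage-like medians of Vehicle-OVA, Ribavirin and Ribavirin-OVA were -0.655, -0.327 and -0.246 relative to like length and -0.625, -0.301 and -0.178 relative to all genes. With at least 500 UMIs per gene, neutrophil-like counts were 11 (OVA under ribavirin) and 9 (ribavirin with OVA), and with 1 UMI the neutrophil-like ribavirin median without OVA was -0.201. The macrophage-like count for ribavirin with OVA was 0 with 500 UMIs, with the stricter gate and with several gates resolved by most UMIs, and 4 with the mean of single-cell CPM. The mean Eif4a1 share of T cell-like cells was 58.8% with the stricter gate, 58.7% with gates resolved and 54.0% by single-cell mean, which gave 76.3% in macrophage-like cells. Apart from the alternatives' own construction the cause was not tested. Members such as Eif2d and Eif3j2 are limited by depth.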
